A study of Mus musculus with 22 samples.

Results

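The genes described here are 10 markers of astrocytes and of Bergmann glia, the astrocytes of the cerebellar cortex: Gfap, Aqp4, Slc1a2, Slc1a3, Aldh1l1, S100b, Gja1, Glul, Aldoc and Gdf10. They were taken by name from the count tables of cerebrum, cerebellum and thymus, to be read as a sign of gliosis, and all 10 were found among the 34585 entries that each table lists. The libraries came from Tol mice and their WT littermates on the C57BL/6 strain, young adults with no treatment named. Tol mice were heterozygous for a transgene under the CAG promoter, placed 3′ of Col1a1 in embryonic stem cells, so that they stand for a single engineered line. The transgene encodes scrambled pieces of reporter and modifier proteins in a single open reading frame, and WT littermates lacked it. The brain was sequenced because such a protein could be a burden to its cells. Poly(A) RNA was sequenced from 4 Tol and 4 WT cerebra, 2 Tol and 4 WT cerebella, and 4 Tol and 4 WT thymi.

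Astrocytes take up the glutamate and potassium that neurons release, make glutamine, hold water channels at blood vessels, and are joined to each other through gap junctions. After injury or under chronic stress many of them enlarge and make more of the intermediate filament protein GFAP, a change called gliosis. Bergmann glia lie beside Purkinje cells in the cerebellar cortex and wrap their synapses, and they carry a large share of the glutamate uptake there. The thymus, sequenced as the site of T cell deletion, has no astrocytes. In tissue RNA, a lower level of a marker can mean fewer cells of that type or less RNA in each cell, and these cannot be told apart.

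The Tol transcript had 448 to 4628 counts in each Tol library and 0 to 2 counts in each WT library. Levels are given as CPM, a count relative to its library total on the usual per-library scale, with totals adjusted by TMM (trimmed mean of M values) over the 22 libraries. Total counts ranged from 14543698 to 34776973 with a median of 21577753.5. The cerebrum libraries carried the markers of forebrain neurons, with a summed level of 6 genes between 487 and 619 CPM against 8.75 to 138 CPM in cerebellum. The thymus libraries carried those of thymocytes, with 6287 to 9057 CPM against at most 43.8 CPM in brain.

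The library labelled cerebellum Tol 2 stood apart from the other cerebella in markers of the organ itself. Its 6 granule cell markers summed to 188 CPM, against 5109 CPM in cerebellum Tol 1 and 2194 to 4869 CPM in the WT cerebella. Its 6 Purkinje cell markers summed to 741 CPM, where Tol 1 had 9629.6 CPM and the WT cerebella 3729 to 9604 CPM. Its forebrain markers summed to 8.75 CPM, below every other brain library. Among the WT cerebella, WT 2 was lowest for granule cell markers and highest for 6 oligodendrocyte markers (17278 CPM, against 5145 to 7192 CPM in the others). The choroid plexus markers summed to 1323 CPM in WT 2 and 4744 CPM in WT 4, against 20.3 to 38.7 CPM in the other 4 cerebella. The labels do not say whether the same tissue was taken for Tol 2 as for the other cerebella, and it is counted below under its label. Differences between genotypes in cerebellum are given with and without it.

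Stretches of 250 bases before the RefSeq start (GRCm38.p6) are shown for Gfap, a marker of gliosis, and for Gdf10 and Slc1a3, the members that parted the cerebellum libraries most. They were searched for TATAAA on the gene's strand and, on both strands, for the nuclear factor I half-site TTGGC, the STAT motif TTCNNNGAA and the SOX motif ACAAAG. Matches stand in capitals, and the lines give each gene's strand, 5′ to 3′.
Gdf10, chr14:33923337-33923586, plus strand: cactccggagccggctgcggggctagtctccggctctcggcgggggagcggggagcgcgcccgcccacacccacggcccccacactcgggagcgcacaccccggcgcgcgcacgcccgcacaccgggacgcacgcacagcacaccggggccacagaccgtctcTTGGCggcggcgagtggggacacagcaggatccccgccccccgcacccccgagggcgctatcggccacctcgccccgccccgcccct
Slc1a3, chr15:8710808-8711057, minus strand: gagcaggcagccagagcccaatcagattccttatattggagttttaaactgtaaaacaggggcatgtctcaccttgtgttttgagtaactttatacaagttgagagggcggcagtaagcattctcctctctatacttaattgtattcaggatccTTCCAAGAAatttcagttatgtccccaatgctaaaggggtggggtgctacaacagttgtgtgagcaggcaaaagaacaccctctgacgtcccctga
Gfap, chr11:102897201-102897450, minus strand: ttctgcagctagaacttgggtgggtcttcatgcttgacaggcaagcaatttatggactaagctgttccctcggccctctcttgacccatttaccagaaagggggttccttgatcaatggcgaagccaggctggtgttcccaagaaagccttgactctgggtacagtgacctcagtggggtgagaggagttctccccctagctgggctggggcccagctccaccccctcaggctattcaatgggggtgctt
No base of these 3 windows is annotated as exon in GENCODE vM21, and that of Gfap lies in an intron of its longest annotated span. On GRCm38 the genes span chr14:33923587-33937983 (Gdf10, ENSMUSG00000021943), chr15:8634124-8710764 (Slc1a3, ENSMUSG00000005360) and chr11:102887336-102900912 (Gfap, ENSMUSG00000020932). The Gdf10 window is rich in G and C (78.8%) and holds a TTGGC that starts 87 bases before the start site, whereas the Slc1a3 window (44.8% G and C) holds a STAT motif 96 bases before it. The Gfap window (55.6% G and C) holds none of these letters. Of the 9 members whose window was read, 5 held the nuclear factor I half-site on either strand, against 41.5% of 32851 promoters. The STAT motif was in 2 of 9 (Aldoc and Slc1a3), against 7.02% of promoters. Aldoc had 2 windows, with its STAT and nuclear factor I matches in different ones, whereas the shares over promoters count single windows. TATAAA was in 0 of 9 (7.59% of promoters) and the SOX motif in 0 of 9 (16.5%).

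In the cerebrum, none of the 10 glial genes passed the threshold between Tol and WT mice, and the mean of Gfap was lower in Tol than in WT. Gfap encodes a filament protein used as a marker of gliosis. Its RNA was at 102, 59.7, 135 and 87.7 CPM in the Tol cerebra and at 182, 96.6, 65.7 and 167 CPM in the WT cerebra. The groups overlapped and both of the highest values belonged to WT mice. The log2 fold change for Tol relative to WT was -0.41 (SE 0.34, adjusted p = 0.747 in edgeR's quasi-likelihood test), with a 95% interval from 0.445-fold to 1.28-fold. At an adjusted p under 0.05, 0 of the 10 genes were called, and 0 of all 15596 genes tested (0%). An unadjusted p under 0.05 was found for 1 of the 10, against 9.66% of all genes, and DESeq2 called 0 of the 10 and 187 of all genes.

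**Figure D1:**
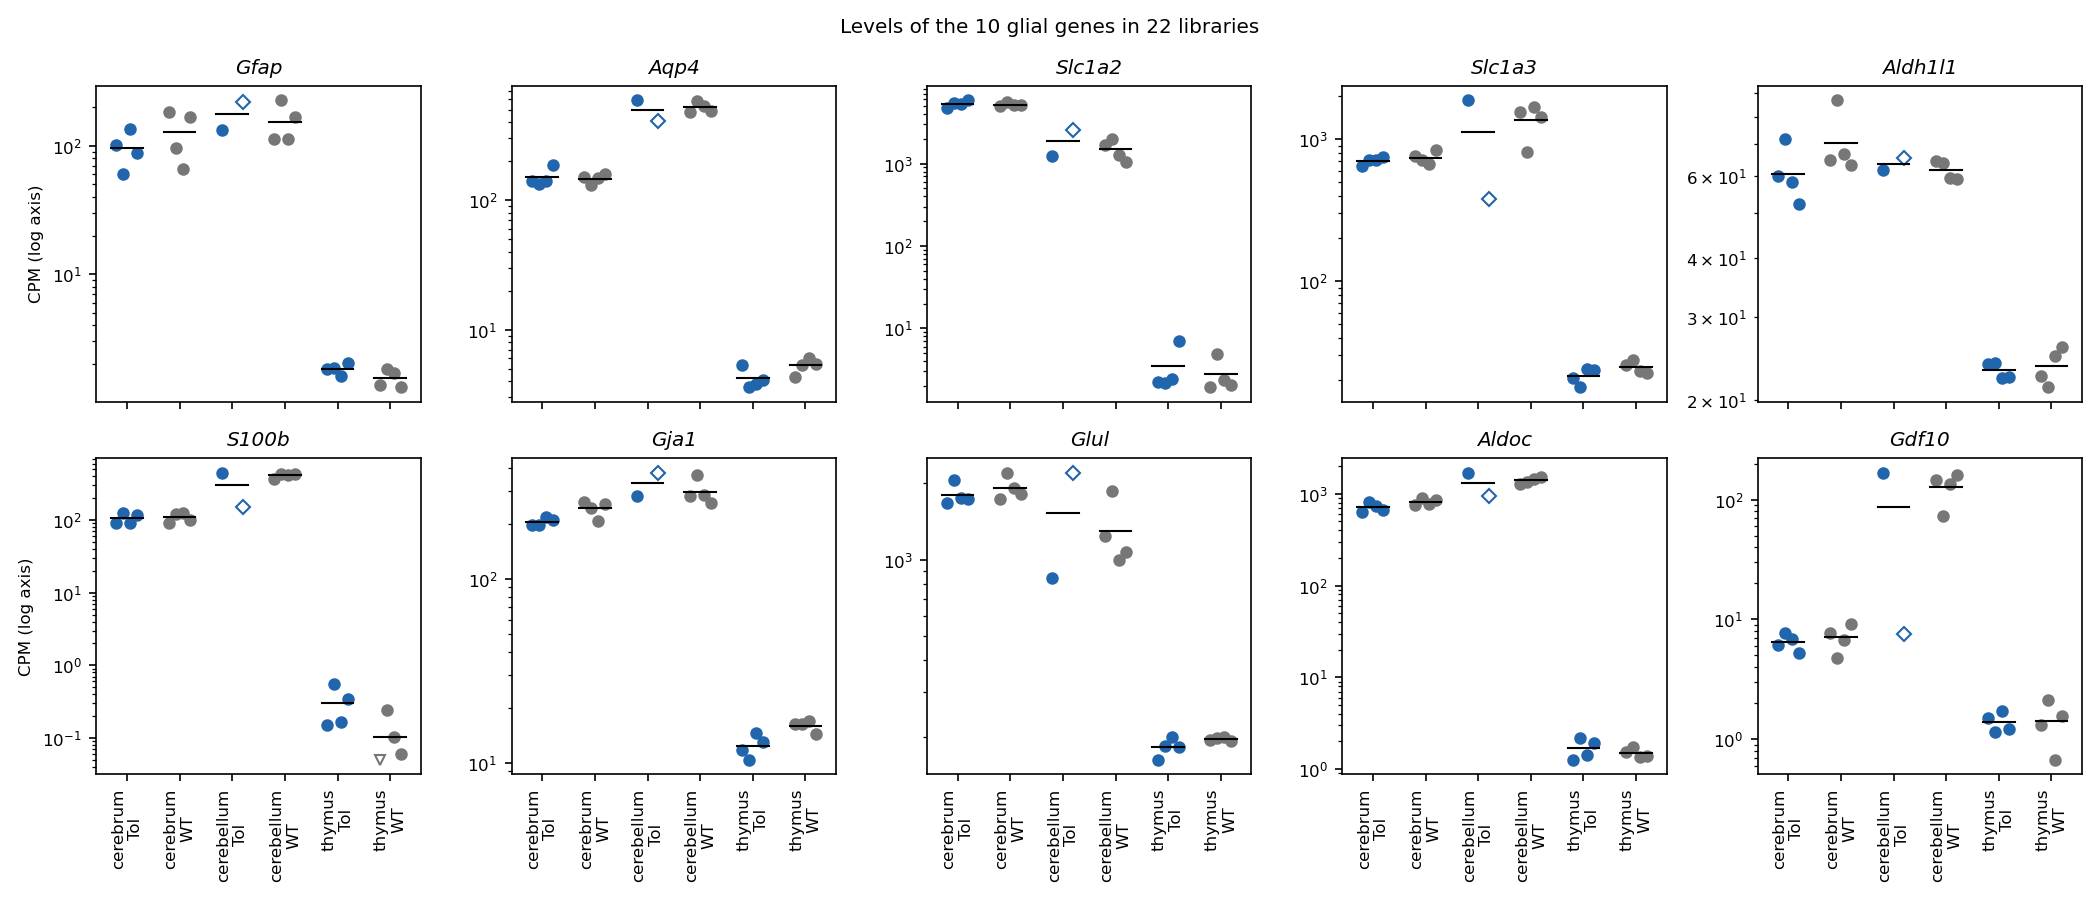
Level of each of the 10 genes in CPM (log axis) in every library, by organ and genotype. Blue points are Tol libraries, grey points WT libraries, the open diamond is the library labelled cerebellum Tol 2, the open triangle marks a count of 0 and the bars are group means. Tol and WT points overlap in the cerebrum for all 10 genes.

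The genes of glutamate handling had small differences between genotypes in the cerebrum. Slc1a2, the main glutamate transporter of forebrain astrocytes (GLT-1), was at 4731, 5497, 5313 and 5850 CPM in the Tol libraries, against 4926, 5658, 5076 and 5082 CPM in WT cerebra. Its log2 fold change was 0.05 (SE 0.10, 95% interval 0.889-fold to 1.20-fold, edgeR adjusted p = 0.913). Slc1a3, the transporter GLAST, was at 651, 712, 707 and 745 CPM in the Tol libraries, against 755, 709, 664 and 831 CPM in WT cerebra, a log2 fold change of -0.07 (SE 0.09, edgeR adjusted p = 0.844). Glul, glutamine synthetase, lay between 1669 and 2065 CPM in the Tol libraries and between 1735 and 2199.9 CPM in WT cerebra (log2 fold change -0.08, SE 0.10). For these 3 genes the interval of the difference stayed between 0.804-fold and 1.20-fold.

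The largest difference relative to its error was that of Gja1, which encodes connexin 43, the main gap junction protein of astrocytes. Its level was 196, 198, 217 and 209 CPM in the Tol libraries and 262, 243, 207 and 257 CPM in WT cerebra. Only WT 3 lay within the Tol range. The log2 fold change was -0.24 (SE 0.08, unadjusted p = 0.0189, adjusted p = 0.396 with edgeR), which did not pass. Aldoc, the brain form of the glycolytic enzyme aldolase, was at 630, 807, 729 and 666 CPM in the Tol libraries, against 757, 901, 777 and 850 CPM in WT cerebra (log2 fold change -0.21, SE 0.10, edgeR adjusted p = 0.526). Aldh1l1, an enzyme of folate metabolism used as a general astrocyte marker, had the same log2 fold change of -0.21 (SE 0.12, edgeR adjusted p = 0.624).

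The water channel gene Aqp4 lay between 133 and 187 CPM in the Tol libraries and between 131 and 159 CPM in WT cerebra, a log2 fold change of 0.04 (SE 0.12). S100b, a calcium-binding protein of astrocytes, lay between 89.9 and 125 CPM in the Tol libraries and between 90.3 and 127 CPM in WT cerebra (-0.05, SE 0.15, as a log2 fold change). Gdf10, a secreted factor typical of Bergmann glia, was low in the cerebrum, at 5.22 to 7.65 CPM in the Tol libraries and 4.76 to 9.23 CPM in WT. Of the 10 genes, 8 had a log2 fold change below 0, against 51.4% of all genes tested, and the median over the 10 was -0.11, against -0.005 over all genes.

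In the cerebrum, Gfap varied more between mice of a genotype than the other members. The within-group standard deviation over the 8 cerebra was 0.59 on the scale of log2(CPM + 1), larger than that of 97.3% of 14686 genes, whose median was 0.15. The other 9 members had values between 0.11 and 0.29. In the WT cerebella the value of Gdf10 (0.51) was above that of Gfap (0.48).

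Lists of genes that reactive astrocytes make were read beside the members. Of 12 pan-reactive genes, 8 were tested in the cerebrum and 0 called, 3 with a log2 fold change above 0 and 5 below, and a median of -0.07 against -0.005 over all genes. The lowest p of that list was that of Osmr, a cytokine receptor subunit, at a log2 fold change of -0.39 (SE 0.20, edgeR adjusted p = 0.573). Of 12 genes of the neuroinflammatory form, 11 were tested and 0 called, with a median of 0.08. Iigp1, an interferon-induced GTPase, had the lowest p there, at 0.79 (SE 0.28, edgeR adjusted p = 0.407) as a log2 fold change. Its levels were 2.33, 2.19, 1.63 and 3.43 CPM in the Tol libraries and 1.30, 1.22, 1.92 and 1.02 CPM in WT cerebra, with WT 3 above Tol 3. Iigp1 belongs to a family of near-identical genes, among which reads may be split. Of 12 genes of the ischaemic form, 9 were tested and 0 called (median 0.06), with the lowest p for Clcf1, a cytokine of the interleukin-6 family, at 0.43 (SE 0.26, edgeR adjusted p = 0.635).

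Among 28 further astrocyte genes, 0 were called in the cerebrum, and 23 had a log2 fold change below 0. An unadjusted p under 0.05 was found for 11 of the 28, against 9.66% of all genes, and the median log2 fold change was -0.15. Mt1, a metal-binding metallothionein, had the lowest p. It was at 68.1, 69.3, 80.6 and 58.9 CPM in the Tol libraries, against 103, 98.2, 85.3 and 98.6 CPM in WT cerebra, so that every Tol library lay below every WT library, as for 3.16% of all genes tested. Its log2 fold change was -0.47 (SE 0.10, adjusted p = 0.204 with edgeR and 0.00359 with DESeq2). Chosen after their values were seen, Mt2, Cst3, Ppp1r3c and Apoe were also lower in every Tol library (log2 fold changes of -0.66, -0.30, -0.49 and -0.14), and the transcription factor gene Sox9 was higher in every one (0.33), as were 3.3% of all genes. None of these 5 passed edgeR's test after adjustment (adjusted p = 0.207 to 0.536). In the same libraries all 6 oligodendrocyte markers had log2 fold changes below 0 (median -0.26, summed level 4649 to 5649 CPM in the Tol libraries and 4883 to 7356 CPM in WT), and the neuronal markers had a median of 0.08. The part of cell composition in these differences was not tested.

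The partners of the members were also not called in the cerebrum. Among intermediate filament genes, Nes, which encodes nestin, had a log2 fold change of -0.40 (SE 0.17, edgeR adjusted p = 0.484), and Vim, the partner of GFAP in reactive astrocytes, named here for its role, had 0.03. Among connexins, Gjb6, another connexin of astrocytes, had -0.35 (SE 0.11, edgeR adjusted p = 0.342). Slc38a5, a glutamine carrier, had 0.40 (SE 0.27). Mlc1, a protein of astrocyte endfeet, had -0.15 (SE 0.06), and Aldoa, the muscle form of aldolase, had -0.09 (SE 0.10). Of the 9 other Bergmann glia genes tested, 0 were called, and Wif1, a secreted Wnt inhibitor, had the lowest p at -0.54 (SE 0.27, edgeR adjusted p = 0.558).

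**Figure D2:**
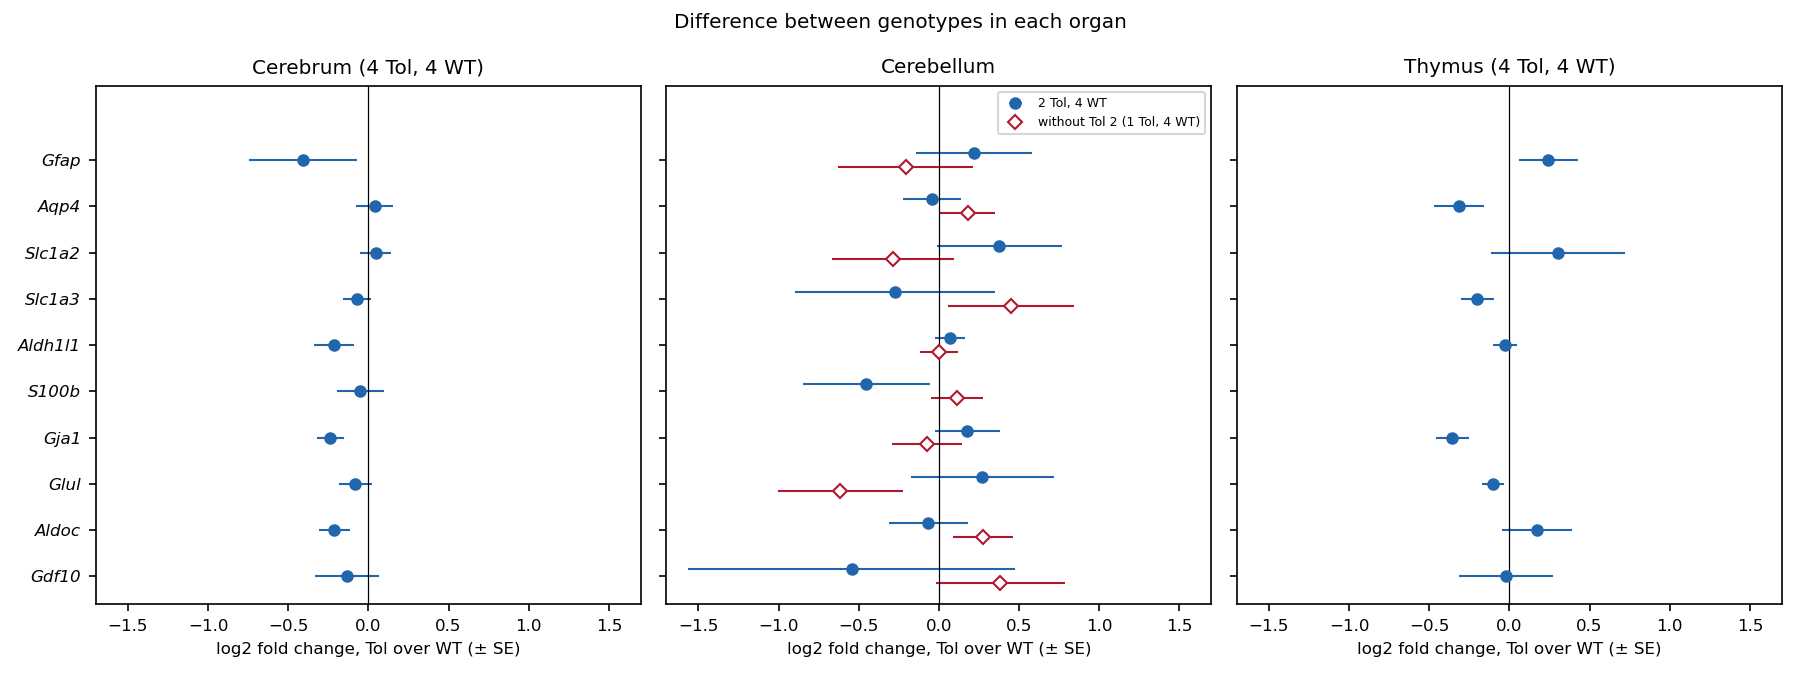
Log2 fold change of Tol over WT with its standard error for each gene in cerebrum, cerebellum and thymus. In the cerebellum the blue circles use both Tol libraries and the red open diamonds leave out Tol 2, and S100b in thymus was below the expression filter. The cerebrum values lie between -0.41 and 0.05, and 9 cerebellum values change sign without Tol 2.

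In the cerebellum, none of the 10 genes was called between Tol and WT mice, and the 2 Tol libraries lay far apart. Gdf10 was at 168 CPM in Tol 1 and 7.54 CPM in the library labelled Tol 2, against 146, 72.9, 135 and 161 CPM in WT. Slc1a3 was at 1874 and 376 CPM in Tol 1 and Tol 2, against 1552, 812, 1680 and 1432 CPM in WT. S100b was at 448 and 152 CPM, against 374 to 437 CPM in WT. For these 3 genes, and also for Aqp4 and Aldoc, Tol 1 was above every WT library and Tol 2 below every one.

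Slc1a2 and Glul had the opposite order. Slc1a2 was at 1225 CPM in Tol 1 and 2569 CPM in Tol 2, against 1686, 1973, 1287 and 1031 CPM in WT. Glul was at 844 and 2201 CPM, against 1236, 1866, 993 and 1076 CPM in WT. WT 2, the WT cerebellum lowest in granule cell markers, also was the WT library highest in Slc1a2 and Glul and lowest in Gdf10 and Slc1a3. Aldh1l1 varied least, between 59.1 and 65.2 CPM over the 6 cerebella.

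**Figure D3:**
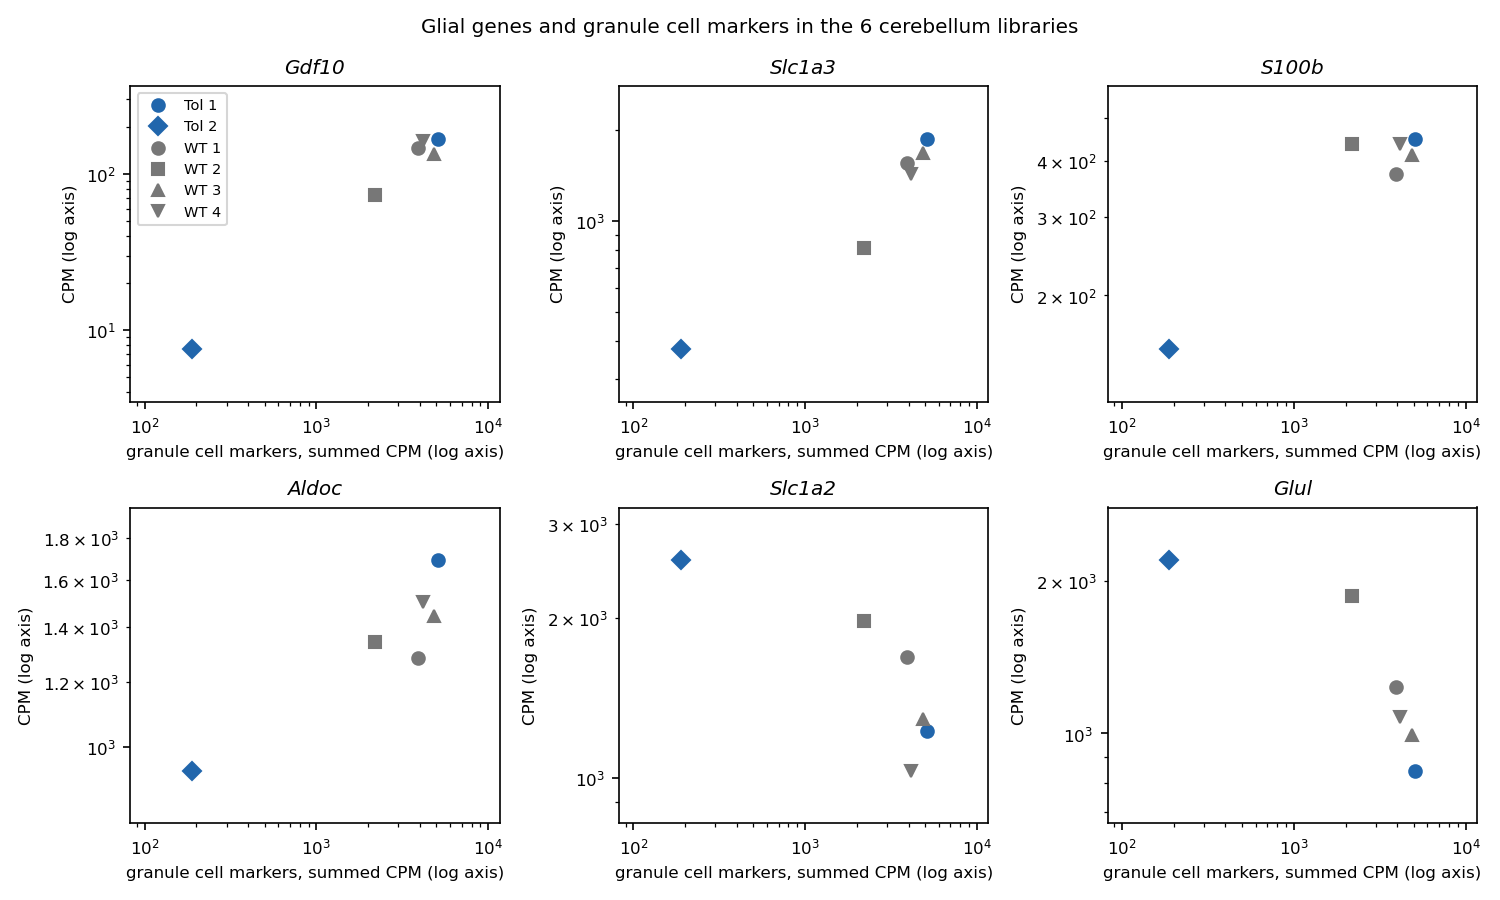
Level of 6 genes in CPM against the summed CPM of 6 granule cell markers in the 6 cerebellum libraries, both on log axes. Blue symbols are Tol and grey symbols WT libraries. Gdf10 and Slc1a3 are lowest, and Slc1a2 and Glul highest, in Tol 2 and then WT 2, the 2 libraries with the lowest granule cell markers.

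With both Tol libraries the log2 fold changes ran from -0.54 (SE 1.02) for Gdf10 to 0.38 (SE 0.39) for Slc1a2, and each adjusted p of the 10 genes was at least 0.957 with edgeR. Of all 16662 genes tested, 0 were called (0%), 3.16% had an unadjusted p under 0.05 and DESeq2 called 9, none of them a member. Without Tol 2, the sign turned for 9 genes: Gfap went from 0.22 to -0.21, Aqp4 from -0.04 to 0.18, Slc1a2 from 0.38 to -0.29, and Slc1a3 from -0.27 to 0.45. S100b went from -0.45 to 0.11, Gja1 from 0.18 to -0.07, Glul from 0.27 to -0.61, Aldoc from -0.07 to 0.28 and Gdf10 from -0.54 to 0.38 on the same scale. Then 0 of 17082 genes were called, with Tol 1 alone assumed to vary as the WT libraries do, and 352 (2.06%) had an unadjusted p under 0.05. Gfap itself was at 134 and 218 CPM in Tol 1 and Tol 2 and at 112, 226, 113 and 166 CPM in WT, so that both Tol values lay within the WT range.

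The reactive lists gave no call in the cerebellum either, with 0 of 10 pan-reactive genes, 0 of 11 neuroinflammatory genes and 0 of 10 ischaemic genes tested. Serping1, a complement inhibitor of the neuroinflammatory list, had a log2 fold change of 0.57 (SE 0.13, edgeR adjusted p = 0.957). It was at 18.6 and 16.5 CPM in the Tol cerebella, both above the WT range of 11.0 to 13.4 CPM, as were 5.2% of all genes. Cp, ceruloplasmin, had 0.41 (SE 0.17) and Ptx3, a pentraxin, 1.42 (SE 0.89). Without Tol 2, Serping1 had 0.63, Cp 0.30 and Ptx3 0.020, so that the value of Ptx3 rested on Tol 2. Of 28 further astrocyte genes 0 were called, with Mt2 at the lowest p (log2 fold change -0.70, SE 0.15, edgeR adjusted p = 0.957). Mt2 was at 51.8 and 52.4 CPM in the Tol libraries, below the WT range of 75.0 to 102 CPM, as were 5.26% of all genes. The lowest p among the other lists was that of Etv5 for Bergmann glia (-0.47, SE 0.17), Gjb2 for connexins (1.14, SE 0.26), Slc38a5 for carriers (0.55, SE 0.23), Dtna for aquaporin anchoring (-0.14, SE 0.22) and Nes for filaments (-0.06, SE 0.25), and none was called. Aldoa had a log2 fold change of 0.08 (SE 0.13). Without Tol 2 the values were -0.73 for Mt2, -0.44 for Etv5, 0.67 for Gjb2, 0.27 for Slc38a5, 0.14 for Dtna, -0.32 for Nes and -0.024 for Aldoa. No gene of these lists was called then either by edgeR.

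Whether the effect of Tol differed between cerebellum and cerebrum was tested as an interaction over the 14 brain libraries. For the 10 genes 0 interactions were called, and 0 of all 17130 genes (0%), with 6.08% of all genes at an unadjusted p under 0.05 and 7 genes called by DESeq2. Gja1 had the lowest p of the 10, with a difference between the log2 fold changes of 0.43 (SE 0.20, unadjusted p = 0.0477, adjusted p = 0.812 with edgeR). With cerebellum Tol 1 left out, so that Tol 2 alone stood for its group, Slc1a3 (-1.75), S100b (-1.35) and Gdf10 (-3.91) were called, among 1499 of all genes. In that fit the lone Tol 2 was assumed to vary as the libraries of the other groups do. With Tol 2 left out, 0 of the 10 were called.

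In the thymus, 9 of the 10 genes passed the expression filter and 0 were called between genotypes, against 16 of all 16248 genes (0.0985%). S100b did not pass, with 6, 12, 4 and 8 counts in Tol and 0, 5, 2 and 2 counts in WT thymi. Gja1 was at 11.8, 10.4, 14.5 and 12.9 CPM in the Tol libraries, against 16.3, 16.2, 16.8 and 14.4 CPM in WT thymi, and the groups overlapped only through Tol 3 and WT 4. Its log2 fold change was -0.36 (SE 0.10, unadjusted p = 0.00532), with an adjusted p of 0.0954 in edgeR and 0.0332 in DESeq2. An unadjusted p under 0.05 was found for 24.4% of all genes in this organ, and DESeq2 called 1296 of them.

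The other members had log2 fold changes between -0.32 (Aqp4, SE 0.16) and 0.30 (Slc1a2, SE 0.42) in the thymus. Gfap was at 1.84, 1.84, 1.60 and 2.03 CPM in the Tol libraries, against 1.36, 1.84, 1.71 and 1.32 CPM in WT thymi (log2 fold change 0.24, SE 0.18, edgeR adjusted p = 0.438). Genes of the other lists were also not called by edgeR with the low-count filter and all thymus libraries. Osmr had -0.47 (SE 0.10, edgeR adjusted p = 0.0760) as a log2 fold change, and Fkbp5, a glucocorticoid-induced chaperone partner, -0.31 (SE 0.08, edgeR adjusted p = 0.0858). Slc10a6, a steroid sulfate carrier, had -1.90 (SE 0.34, edgeR adjusted p = 0.0607). It was at 0.223, 0.138, 0.328 and 0.127 CPM in the Tol thymi, against 0.598 to 1.03 CPM in WT thymi. Its values in Tol 2 and Tol 4 lay at the floor of 3 counts. Dag1, the dystroglycan that anchors aquaporin 4, had -0.28 (SE 0.07, edgeR adjusted p = 0.0832). DESeq2 called Osmr (adjusted p = 0.00417), Fkbp5 (0.00571) and Dag1 (0.0105), and edgeR without the filter called Slc10a6 (adjusted p = 0.0426). Without thymus Tol 1, edgeR with the filter called Osmr (adjusted p = 0.00965), Fkbp5 (0.0245), Slc10a6 (0.0126) and Dag1 (0.00947), among 2978 of all genes. Without thymus Tol 3 it called Slc10a6 (edgeR adjusted p = 0.0397), among 97 of all genes. Mt3 (0.89, SE 0.29), Gli2 (-0.65, SE 0.23), Synm (-0.18, SE 0.07), Gjb6 (0.33, SE 0.24) and Slc1a4 (-0.16, SE 0.08) had the lowest p of their lists, and Aldoa had -0.016 (SE 0.07).

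The levels of the 10 genes between organs were set side by side in WT mice. All 10 were higher in cerebrum than in thymus (edgeR adjusted p at most 5.69e-05), as were 41.4% of all 16851 genes tested, and 86.5% were called in either direction. Slc1a2 was at 4926 to 5658 CPM in WT cerebrum and 1.93 to 4.94 CPM in WT thymus, and Aldoc at 757 to 901 CPM and 1.34 to 1.74 CPM. Their log2 fold changes were 10.85 (SE 0.32) and 9.07 (SE 0.12). Those of Gfap, Slc1a3, Aqp4 and Gja1 were 6.35, 4.88, 4.77 and 3.91. S100b was at 90.3 to 127 CPM in WT cerebrum and at 0 to 5 counts per library in WT thymus, near the floor of 3 counts. With each library left out in turn, its log2 fold change ran from 9.70 to 10.80, a value that depends on these few thymus counts.

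Glul, Gdf10 and Aldh1l1 parted the organs least. Glul was at 192 to 199 CPM in WT thymus, with a log2 difference of 3.27 (SE 0.09), Gdf10 was at 0.672 to 2.13 CPM there (2.29, SE 0.31) and Aldh1l1 at 21.3 to 25.8 CPM (1.55, SE 0.12). The annotated span of Aldh1l1 on chromosome 6 overlaps Gm45901 on the same strand and Gm15756 on the other. That of Glul on chromosome 1 overlaps Mir8114 and, on the other strand, Teddm2, and that of Slc1a2 on chromosome 2 overlaps Gm13872 on the other strand. Reads in the overlaps on the same strand could be assigned to either gene, and the levels of Aldh1l1 and Glul carry that uncertainty. The libraries were made with a stranded kit, and whether overlaps on the other strand affected the counts was not checked.

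Between the 2 brain regions of WT mice, 5 of the 10 genes were higher in cerebellum, 2 were lower and 3 were not called, against 49.8% called of all 15877 genes (25.6% higher, 24.2% lower). Gdf10 differed most. It was at 146, 72.9, 135 and 161 CPM in WT cerebella and at 7.70, 4.76, 6.78 and 9.23 CPM in WT cerebra, with no overlap (24.3% of all genes in this direction), a 17.9-fold difference (log2 4.16, SE 0.29, edgeR adjusted p = 1.81e-05). S100b was at 374, 437, 412 and 436 CPM in WT cerebella and at 90.3, 122, 127 and 99.7 CPM in WT cerebra (log2 fold change 1.91, SE 0.13, edgeR adjusted p = 1.43e-05). Aqp4 was at 482, 579, 534 and 489 CPM and at 150, 131, 147 and 159 CPM in the same order (log2 fold change 1.82, SE 0.10, edgeR adjusted p = 7.34e-06). A called difference of more than 1 in log2 upwards, as these 3 had, was found for 8.23% of all genes.

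The 2 glutamate transporters went opposite ways. Slc1a2 was lower in WT cerebellum than in WT cerebrum, at 1686, 1973, 1287 and 1031 CPM against 4926, 5658, 5076 and 5082 CPM, a log2 fold change of -1.80 (SE 0.20, edgeR adjusted p = 0.000161). Slc1a3 was higher, at 1552, 812, 1680 and 1432 CPM against 755, 709, 664 and 831 CPM (log2 fold change 0.88, SE 0.21, edgeR adjusted p = 0.00759), with WT 2 below the highest cerebrum. Without WT 2 the Slc1a3 value was 1.04 and the groups did not overlap, as for 30.2% of all genes in this direction. Aldoc was higher in cerebellum (0.76, SE 0.10, edgeR adjusted p = 0.000327), at 1284 to 1504 CPM against 757 to 901 CPM.

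Glul was lower in WT cerebellum, at 1236, 1866, 993 and 1076 CPM, than in WT cerebrum, at 1735, 2199.9, 1913 and 1814 CPM. Its call was near the threshold (log2 fold change -0.57, SE 0.20, edgeR adjusted p = 0.0441). It was lost without the low-count filter and with any single library but cerebellum WT 2 left out, and without WT 2 the value was -0.83 (edgeR adjusted p = 0.00105). Gfap (0.26, SE 0.35), Gja1 (0.30, SE 0.13) and Aldh1l1 (-0.20, SE 0.11) were not called. In a single fit of all 22 libraries Gja1 was called (0.30, edgeR adjusted p = 0.0387), so that 8 members were, among 8995 of all genes. Gfap was at 112, 226, 113 and 166 CPM in WT cerebella, against 182, 96.6, 65.7 and 167 CPM in WT cerebra, and its log2 fold change was -4.95e-05 without cerebellum WT 2. Its 95% interval ran from 0.688-fold to 2.10-fold with all libraries.

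**Figure D4:**
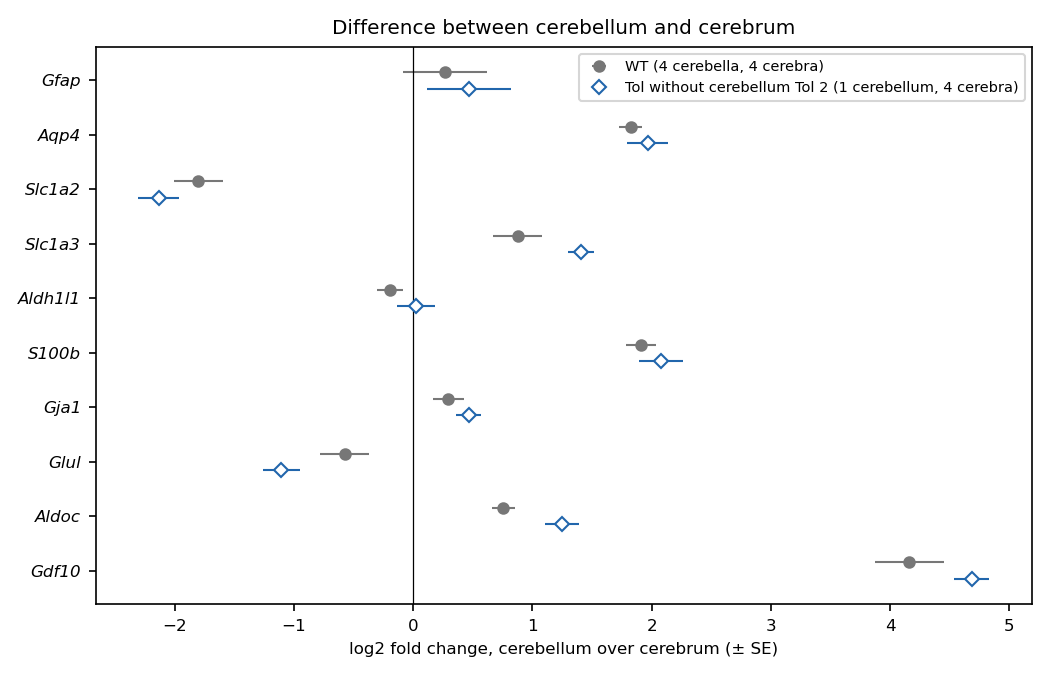
Log2 fold change of cerebellum over cerebrum with its standard error for each gene, in WT mice (grey circles) and in Tol mice without the library labelled cerebellum Tol 2 (blue open diamonds). Gdf10 lies farthest to the right in both, at 4.16 and 4.69, and Slc1a2 farthest to the left, at -1.80 and -2.13.

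The Tol mice gave the same comparison in animals that the WT one did not use. With both Tol cerebella, 4 of the 10 genes were called (Aqp4, Gja1 and Gdf10 higher, Slc1a2 lower in cerebellum), against 15.6% of all 16467 genes (7.4% higher, 8.17% lower). Aqp4 had a log2 fold change of 1.74 (SE 0.20, edgeR adjusted p = 0.00587) and Slc1a2 one of -1.48 (SE 0.32, edgeR adjusted p = 0.0320). Leaving out any 1 Tol cerebrum kept only the call of Aqp4, and without Tol 1 the value of Gdf10 was 0.23 (edgeR adjusted p = 0.520). Without Tol 2, 8 genes were called, against 39.3% of all genes, with the lone cerebellum assumed to vary as the cerebra do. These were Gdf10 (4.69), S100b (2.08), Aqp4 (1.97), Slc1a3 (1.41), Aldoc (1.25), Gja1 (0.47), Glul (-1.10) and Slc1a2 (-2.13), with edgeR adjusted p of at most 0.0116. The calls of Gfap and Aldh1l1 were absent in this fit as in the WT one.

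Other Bergmann glia genes also were higher in WT cerebellum. Of 10 such genes, 8 were called higher and 1 lower (Etv5, -0.88), against 25.6% and 24.2% of all genes, and the median log2 fold change was 1.59, against 0.04 over all genes. Dao, a D-amino acid oxidase, was at 55.2 to 86.4 CPM in WT cerebella and 0.129 to 0.779 CPM in WT cerebra (log2 fold change 7.59, SE 0.39, edgeR adjusted p = 6.79e-06). A2m, a protease inhibitor, was at 78.7 to 159 CPM and 0.771 to 2.46 CPM (6.34, SE 0.37, edgeR adjusted p = 1.03e-05). In the library labelled cerebellum Tol 2, Dao was at 3.87 CPM and A2m at 15.7 CPM, below every other cerebellum and above every cerebrum, while Gdf10 was within the range of the cerebra.

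Of 28 further astrocyte genes, 10 were called higher and 5 lower in WT cerebellum (median 0.19), near the 49.8% of all genes called in either direction. Agt, angiotensinogen, had a log2 fold change of 2.90 (SE 0.35) and Slc4a4, a bicarbonate transporter, one of 1.51 (SE 0.12). Vim was 2.30 (SE 0.15) higher in log2, at 92.8 to 148 CPM in WT cerebella and 21.7 to 28.8 CPM in WT cerebra, and Vim is listed with both the filament and the pan-reactive genes. S1pr3, a lysophospholipid receptor, was lower (-1.10, SE 0.20). Of the neuroinflammatory list, 4 of 11 were higher and 3 lower, against 25.6% and 24.2% of all genes, among them Serping1 (1.69, SE 0.35) and the class I gene H2-D1 (1.64, SE 0.16), whose reads may be split with near-identical family members. Of the ischaemic list B3gnt5 was higher (4.53, SE 0.42) and Ptgs2, cyclooxygenase 2, lower (-4.14, SE 0.49), each the single call in its direction among 9 tested.

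Of the partner lists, only called genes with the largest change are named here, and 49.8% of all genes were called in this comparison. Slc1a6, the glutamate transporter of Purkinje cells, was higher in cerebellum (log2 fold change 4.04, SE 0.34), and the neuronal transporter gene Slc1a1 was lower (-1.46, SE 0.25). Gjc3, a glial connexin, was higher (0.95, SE 0.20), as were Hepacam (0.46, SE 0.09) and Dtna (0.37, SE 0.10) of the endfoot list. The call of Dtna was lost without cerebellum WT 1 (edgeR adjusted p = 0.0539) and without cerebellum WT 3 (edgeR adjusted p = 0.0547). Aldoa was lower (-0.51, SE 0.09), opposite to Aldoc. In the same comparison all 6 granule cell and all 6 Purkinje cell markers were higher, all 6 microglia markers lower (median -1.78) and 5 of 6 forebrain markers lower, and their part in the differences of the 10 genes was not tested.

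Per kilobase of annotated exon, which allows levels of different genes to be compared, Glul, Slc1a2 and Aldoc led in WT cerebrum, with medians over 4 libraries of 561, 387 and 249 CPM per kilobase. Their ranges (522 to 662, 375 to 431 and 232 to 276) did not overlap. Slc1a3 (85.8) and S100b (74.6) followed with overlapping ranges. Gfap (31.3, from 15.6 to 43.1), Gja1 (24.4) and Aqp4 (23.8) overlapped each other, the range of Aldh1l1 (14.6) overlapped that of Gfap, and Gdf10 (1.39) was lowest. In WT cerebellum the order was Aldoc (427), Glul (348), S100b (286), Slc1a3 (175), Slc1a2 (113), Aqp4 (82.1), Gfap (33.1), Gja1 (27.7), Gdf10 (26.9) and Aldh1l1 (13.6) CPM per kilobase. There the ranges of Aldoc and Glul overlapped, as did those of Slc1a2 with both of its neighbours, those of Gfap, Gja1 and Gdf10, and those of Gdf10 and Aldh1l1. By medians Slc1a2 went from the second rank to the fifth, and Gdf10 stood above Aldh1l1. With the longest transcript as length, some of these overlaps were absent and others appeared. Those absent included Slc1a3 with S100b in WT cerebrum (149.7 to 187.5 and 60.9 to 85.6 CPM per kilobase). Slc1a2 and Slc1a3 in WT cerebellum were then also apart (88.9 to 170.2 and 183.0 to 378.8 CPM per kilobase). In the same organ the range of Slc1a3 then overlapped those of S100b (252.1 to 294.3) and Glul (355.7 to 668.5). The median of Slc1a3 there stood above that of S100b.

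**Figure D5:**
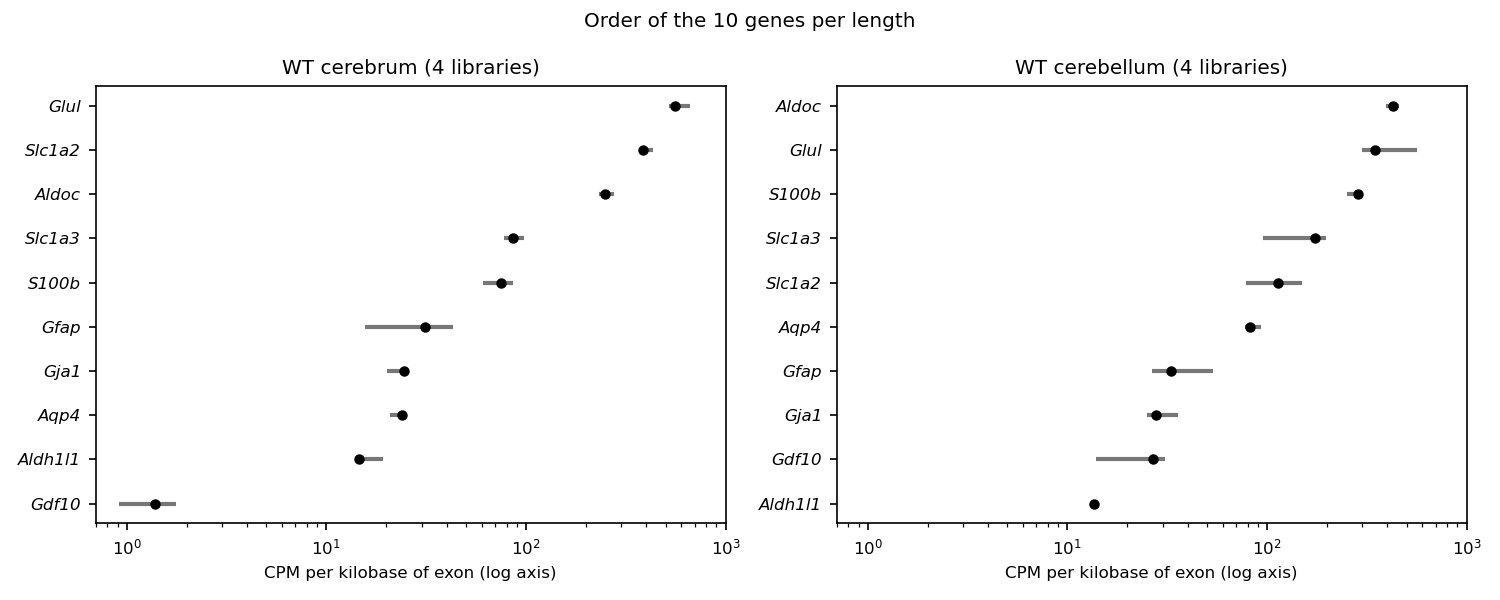
Median level of the 10 genes in CPM per kilobase of exon (log axis) in 4 WT cerebra and 4 WT cerebella, with lines from the lowest to the highest library. Glul leads in cerebrum and Aldoc in cerebellum, and Gdf10 moves from 1.39 to 26.9.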

How the data were processed

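Estimated counts per gene were deposited by the authors as whole numbers, 1 table per organ. Per the submitters' processing notes they used Salmon 0.14.1, GRCm38 and edgeR 3.9, and libraries were made with a stranded mRNA kit. No further rounding was needed, and 0 columns of per-sample values were left unused. Symbols came from GENCODE vM21 for 34465 of 34585 identifiers. Aldoa has more than 1 identifier, of which the first was used.

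Counts were analysed in R 4.3.3 with edgeR 4.0.16 (filterByExpr, TMM, quasi-likelihood F test, Benjamini-Hochberg adjustment, threshold 0.05). DESeq2 1.42.0 was the alternative tool. Each comparison was fitted on its own groups, with no covariate. The standard error is the absolute log2 fold change divided by the square root of F, and 95% intervals use it with the total degrees of freedom of the fit. CPM values use TMM factors over 22 libraries. The Tol transcript stayed in the fits and was not counted among calls. A floor of 3 counts per library was used for genes near 0, which covers counting error only. The paper names 4 mice of each genotype for the RNA-seq data, so libraries of an organ were taken as separate mice, and organs may share mice, but the labels tie no library to a mouse, and organ comparisons treat libraries as independent.

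Total counts were 14543698 to 34776973 per library. Replicate libraries differed beyond counting error (chi-square of 5.28 to 223.5 per degree of freedom, 0 identical pairs). Whether libraries with the same number deviated together was checked (correlations of -0.38 to 0.67), and numbers were not taken as pairs. The members and all gene lists were chosen with earlier results of these data known. Of each other list, the gene of lowest p between genotypes is named, or up to 2 called genes of largest change between organs. Counts of genes tested and of each direction are given for some lists, and not for the partner lists. Any further gene named is said to be so, and 1 listed gene is not reported here. Vim, Kcnj10, Mlc1, Hepacam and Gjb6 stand in more than 1 list. Promoter windows came from RefSeq (GRCm38.p6), and 9 of 10 members were read. Scripts were tested on simulated data. The alternatives were DESeq2 size factors, DESeq2, no filter on low counts, a single fit of 22 libraries, a replicate block, each library left out in turn and, chosen after seeing the data, cerebellum Tol 2 and WT 2 left out together.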

Additional observations from a re-analysis of the deposited data

Results flagged for a closer look

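In 4 of 50 groups of 4 libraries, where chance gives about 2.5, a single library lay apart from the other 3 by Dixon's criterion. Aqp4 was at 187 CPM in cerebrum Tol 4, with the next library at 141 CPM. Slc1a2 was at 6.97 CPM in thymus Tol 4 (next 2.42 CPM) and at 4.94 CPM in thymus WT 2 (next 2.33 CPM). In the same 2 thymi 7 neuronal markers summed to 33.4 and 37.9 CPM, against 26.5 to 29.7 CPM in the other 6, and their part in the Slc1a2 values was not tested. Aldh1l1 was at 86.7 CPM in cerebrum WT 2, with the next library at 66.7 CPM.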

How the results depend on the processing

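The 10 genes kept 0 calls between genotypes in cerebrum and cerebellum under each alternative run, and 10 calls between WT cerebrum and thymus. In thymus, DESeq2 called 1 of them (Gja1). Over all genes, DESeq2 called 187 in cerebrum, 9 in cerebellum, 1296 in thymus and 7 for the interaction, and a single fit of all libraries called 25 in cerebrum, 29 in thymus and 5573 between the Tol brain regions. Without the filter 130 were called in thymus. Leaving out each library gave 0 to 7 calls over all genes in cerebrum, 0 to 2 in cerebellum, 0 to 2978 in thymus and 0 to 1499 for the interaction (0 to 3 of the 10 genes). Between the Tol regions it gave 755 to 6648 (1 to 8 of the 10 genes), and between the WT regions 6737 to 8484 (6 to 7 of the 10 genes). The cause was not tested for these changes. With transcript length taken from the longest transcript, 6 of 10 genes kept their rank per kilobase in WT cerebellum.

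With the replicate block, 5 genes were called in thymus, and 0 of the 10 and 0 of all genes between the Tol regions. The log2 fold change then was -0.014 for Slc1a2 and -0.13 for Glul (cerebellum, Tol over WT), 0.027 for Gdf10 in thymus and -0.030 for Aldh1l1 between the Tol regions. All 7 calls between the WT regions remained with the block. The labels do not tie a number to a mouse (cerebellum correlations of Tol with WT -0.20 and 0.67).

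Without cerebellum Tol 2 and WT 2 together, log2 fold changes of Tol over WT in cerebellum that turned sign were Aqp4 0.23, Slc1a2 -0.13, Slc1a3 0.27, S100b 0.14, Glul -0.39, Aldoc 0.26, Gdf10 0.19, Ptx3 -0.18, Aldoa -0.021 and Dtna 0.063. Interactions that turned were Aqp4 0.22, Slc1a2 -0.14, Slc1a3 0.37, S100b 0.22, Glul -0.27 and Gdf10 0.35.

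Leaving out 1 library turned the sign of these log2 fold changes, given by their range. In cerebrum they were Aqp4 (-0.086 to 0.098), Gdf10 (-0.28 to 0.014), S100b (-0.14 to 0.025) and Slc1a2 (-0.0039 to 0.10). In cerebellum they were Gfap (-0.21 to 0.54), Aqp4 (-0.31 to 0.18), Slc1a2 (-0.29 to 0.82), Slc1a3 (-1.82 to 0.45), S100b (-1.41 to 0.11), Gja1 (-0.072 to 0.38), Glul (-0.61 to 0.81), Aldoc (-0.53 to 0.28), Gdf10 (-4.05 to 0.38), Aldoa (-0.024 to 0.18), Dtna (-0.50 to 0.14) and Nes (-0.32 to 0.15). In thymus they were Aldh1l1 (-0.076 to 0.015), Gdf10 (-0.23 to 0.22), Slc1a2 (-0.28 to 0.71) and Aldoa (-0.044 to 0.056). For the interaction they were Aqp4 (-0.34 to 0.17), Slc1a2 (-0.30 to 0.78), Slc1a3 (-1.75 to 0.55), S100b (-1.35 to 0.20), Glul (-0.50 to 0.90), Aldoc (-0.31 to 0.52) and Gdf10 (-3.91 to 0.55). Between regions they were Slc1a3 (-0.89 to 1.41) and Glul (-1.10 to 0.30) in Tol and Gfap (-4.95e-05 to 0.48) in WT.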

Other observations

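Hopx, a gene of neural stem cells and astrocytes chosen after its values were seen, had levels beside those of Gfap in the cerebra. From the highest Gfap level to the lowest (WT 1, WT 4, Tol 3, Tol 1, WT 2, Tol 4, WT 3, Tol 2), Hopx was at 33.7, 32.7, 25.2, 19.3, 18.7, 16.0, 12.7 and 18.6 CPM. The 3 cerebra highest in Gfap were thus the 3 highest in Hopx, in both genotypes. This was not tested.

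The microglia markers were read beside the glial genes. In cerebellum all 6 had a log2 fold change of Tol over WT above 0 (median 0.43), where 48.2% of all genes were below 0, with none called by edgeR. Without Tol 2, 1 of 6 was above 0 (median -0.049). With all libraries their summed level was 115 CPM in Tol 1, 204 CPM in the library labelled Tol 2 and 99.2 to 168 CPM in WT. In cerebrum 5 of 6 were below 0 (median -0.10), and the summed level was 293 to 365 CPM in the Tol libraries, against 297 to 381 CPM in WT.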
